A study of Mus musculus with 7 samples.

Results

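The choroid plexus is a folded sheet of epithelium around a core of leaky vessels that hangs into the brain ventricles. It makes most of the cerebrospinal fluid, forms the barrier between blood and that fluid, and secretes carrier proteins and signals into it. Because it lies free in the ventricles, the amount of it that comes away with a piece of brain depends on how the piece is cut. The 9 genes described here are known for high expression in its epithelium: Ttr, Kl, Folr1, Clic6, Kcnj13, Otx2, Sostdc1, Enpp2 and Aqp1. They were found on the arrays by gene name, through 12 probes, among 23323 genes and other features tested in all. Each was represented by its brightest probe.

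The samples were RNA from brains of male C57BL/6N mice, 1 sample per 1-colour Agilent array. The day 3 groups, 3 arrays of Wild type and 3 of Pla2g2e -/- mice, came from brains taken on day 3 after a 60 min occlusion of the middle cerebral artery, which supplies much of one hemisphere. Pla2g2e, absent by design in the knockout, encodes a secreted phospholipase A2. A single further array was labelled as sham-operated Wild type. The promoter, exon or construct behind the knockout, and the part of the brain that was dissected, are not given in the sources used here. All levels below are log2 ratios of the processed signal to the 75th percentile of its array, so 1 unit is a 2-fold step. A level is compared only with the same probe on other arrays. Nothing in the labels says that replicates were separate animals, so p-values rest on a spread between samples that could be technical.

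Several features of the series bear on every comparison. All Wild type arrays, sham included, were on slide 1 and all knockout arrays on slide 2, so genotype and slide cannot be told apart. Spots well above background made up 72.5% to 79.1% of each array. The Pla2g2e probe spanned -6.89 to -3.36 in wild type and -5.83 to -4.44 in knockout, and so did not separate the genotypes. A list of 14 genes of phagocytes and reactive astrocytes in injured brain had a median level of -3.03 on wild type replicate 1 against 3.61 to 4.66 on the other 6 arrays, the array labelled sham (3.66) among them. Both arrays thus read against their labels for injury genes. Arrays are named here as labelled, and results are also given, where they rest on wild type replicate 1, without that array.

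Of the members, 3 were measured by 2 probes each, and the first 30 bases of each 60-base probe are shown because agreement between such pairs bears on how far a low reading can be trusted. Positions are on the mm9 assembly, and no part of the sequences is singled out by capitals.
Sostdc1, chr12:37044197-37044256, + strand: tctcaagatgtaatgagtagtttgcagtga
Sostdc1, chr12:37044532-37044591, + strand: tttttccagtctcagtgtgaaattatcccc
Kcnj13, chr1:89282991-89283050, - strand: catatcaatggacaaagcattgacaatttc
Kcnj13, chr1:89282859-89282918, - strand: tgtatctcatgtttccttgttctcagtgct
Folr1, chr7:109006846-109006905, - strand: gtggtggggctctgacagcctctttaataa
Folr1, chr7:109016972-109017031, - strand: ctgggctttttcctgtgctccgagtaggtg
In each pair the brighter probe, used for the values below, stands first. After each probe was centred on its own mean, the Kcnj13 pair, 132 bases apart, differed by at most 0.31 on any array and the Sostdc1 pair, 335 bases apart, by at most 0.49. The Folr1 pair, whose starts are 10126 bases apart, differed by up to 1.49. The second Folr1 probe was well above background on 2 arrays only.

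All 9 members were detected. The brightest probes of 8 members were well above background on all 7 arrays, and that of Sostdc1 on 6. Of 37 other genes typical of choroid plexus epithelium, 32 were tested. Cldn2, the claudin of leaky epithelial junctions, and Tmem72 were well above background on 2 arrays each, too few to be tested. Prr32 was so on 1 array and Cldn1 on none, and no probe was found for Mfrp. Transcripts of genes typical of the epithelium were thus detected, with some of its defining junction genes at or near background. The cells that gave these signals were not tested.

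The members varied widely between arrays, and much of that variation lay between replicates of 1 group. The median range over the 7 arrays was 3.61 log2 units for the 9 members against 1.20 over all features. A range of at least 2 units was found for 7 of the 9, against 28.6% of all features. Within wild type day 3 the median range was 2.53 for the members and 0.95 over all features, and 5 of 9 members ranged over at least 2 units, against 22.8%. Of these 5, Aqp1 and Clic6 did so only through wild type replicate 1, with replicates 2 and 3 apart by 1.03 and 0.97. The wild type figures over all features include replicate 1 too. Within knockout the medians were 1.67 and 0.48, and 3 of 9 members, against 5.83%, ranged over at least 2 units. Ttr and Aqp1 had the widest ranges of the 9 and Enpp2 the narrowest. In such bulk samples, fewer cells of a type and less RNA per cell cannot be told apart.

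Among the secreted proteins, Ttr encodes transthyretin, which carries thyroid hormone in cerebrospinal fluid and binds the retinol carrier RBP4. Its probe lies on chromosome 18 at 20828519 to 20828577. In wild type replicates 1, 2 and 3 Ttr read -2.72, -5.51 and 1.37, on sham -0.21, and in knockout replicates 1, 2 and 3 -1.49, -3.16 and -2.73. Wild type replicates 2 and 3 were thus the lowest and the highest of all 7 arrays, 118-fold apart, and the knockout arrays fell between them. A range of 6.89 units placed Ttr above 99.5% of all features.

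Kl encodes Klotho, a membrane and shed protein that serves as coreceptor for FGF23. Its probe lies on chromosome 5 at 151795712 to 151795771. In the same order, Kl read -3.26, -5.19 and -3.24 in wild type, -3.83 on sham, and -5.34, -3.69 and -5.25 in knockout. Wild type replicate 2 and knockout replicates 1 and 3 were low, and the other 4 arrays were high, so the groups overlapped.

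Sostdc1 encodes a secreted antagonist of BMP and WNT signals. Its level was -4.86 on wild type replicate 1, -8.83 on replicate 2, not well above background, and -6.06 on replicate 3. It was -5.08 on sham and -6.40, -5.92 and -6.07 on the knockout arrays. The second Sostdc1 probe also missed that mark on wild type replicate 2 alone, where it read -9.20. The 3 knockout arrays lay within 0.48 of each other, inside the wild type range.

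Enpp2 encodes autotaxin, which makes lysophosphatidic acid, and is also expressed by oligodendrocytes. Its probe lies on chromosome 15 at 54670921 to 54670980. Enpp2 read 3.68, 2.73 and 3.39 in wild type, 3.66 on sham, and 3.13, 3.34 and 3.44 in knockout. All arrays lay within 0.95, and wild type replicate 2 was again the lowest. A list of 14 mature oligodendrocyte genes had median levels of 2.54 to 2.69 in wild type, 3.42 on sham and 1.99 to 3.61 in knockout. The oligodendrocyte median was lowest on knockout replicate 3, where Enpp2 was the highest of the knockout arrays. Its summed signal, in multiples of the 75th percentile of the array, was 199 to 226 in wild type and 184 to 327 in knockout. Its part in the Enpp2 values was not tested.

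Among the receptors and channels, Folr1 encodes the folate receptor that moves folate from blood to cerebrospinal fluid. Folr1 read -5.16, -4.87 and -3.45 in wild type, -4.14 on sham, and -5.01, -5.27 and -4.41 in knockout. Wild type replicate 3 was the highest array and sham the next. The second Folr1 probe did not repeat that order, with its highest reading, -6.59, on wild type replicate 1.

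Kcnj13 encodes Kir7.1, a potassium channel of the apical membrane of this epithelium. Kcnj13 read -1.77, -1.54 and -1.33 in wild type, -0.78 on sham, and -2.97, -2.74 and -1.19 in knockout. Sham was above every day 3 array, as it was for 6.67% of all features. Knockout replicates 1 and 2 lay below all 3 wild type arrays and knockout replicate 3 above them. The second Kcnj13 probe read -3.21 and -2.90 on knockout replicates 1 and 2, against -1.72 to -1.57 in wild type and -1.65 on knockout replicate 3, which was inside the wild type range on this probe.

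Clic6 encodes a protein of the intracellular chloride channel family, and its probe lies on chromosome 16 at 92541363 to 92541422. Clic6 read 0.42, -2.12 and -1.15 in wild type, -1.26 on sham, and -2.27, -0.75 and -3.20 in knockout. Wild type replicate 1 was the highest array and knockout replicate 3 the lowest. A list of 12 genes of neurons of any region had its highest and lowest medians on the same arrays, 4.2 and 0.77, and its 3 wild type and 3 knockout arrays summed to 51.3 to 283 and 22.3 to 87.5 times the 75th percentile. The part of neurons in the Clic6 values was not tested.

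Aqp1 encodes the apical water channel of the epithelium and is also found in red blood cells and some vessels. Its probe lies on chromosome 6 at 55298480 to 55298539. Aqp1 read -5.43, 0.02 and 1.04 in wild type, -0.83 on sham, and 1.06, -0.09 and 1.95 in knockout. Wild type replicate 1 stood far below the next lowest array, sham. That array also had the lowest medians of the injury list, of the 12 endothelial genes (-0.46 against 0.83 to 1.92 on the other 6) and of the 7 red blood cell genes tested (-5.38 against -4.94 to -0.43). The red blood cell summed signal, 10.2 to 20.9 in wild type and 10.3 to 28.1 in knockout, did not show that order. The median of the 32 other choroid plexus genes tested was also lowest on wild type replicate 1, at -3.06 against -2.89 to -2.32. So were those of leptomeningeal genes (-0.22), vascular smooth muscle genes (-0.49) and genes of fluid secretion (1.14). The part of these cells in the Aqp1 values was not tested.

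Otx2, the only transcription factor of the 9, encodes a homeodomain protein needed to form and maintain the choroid plexus. Its probe lies on chromosome 14 at 49277855 to 49277914. Otx2 read -4.32, -6.65 and -2.52 in wild type, -3.31 on sham, and -2.99, -2.91 and -6.60 in knockout. Wild type replicate 2 and knockout replicate 3 were low by a similar amount, and wild type replicate 3 was the highest array. The ranges within the groups, 4.13 in wild type and 3.69 in knockout, were each larger than any difference between group means.

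**Figure D1:**
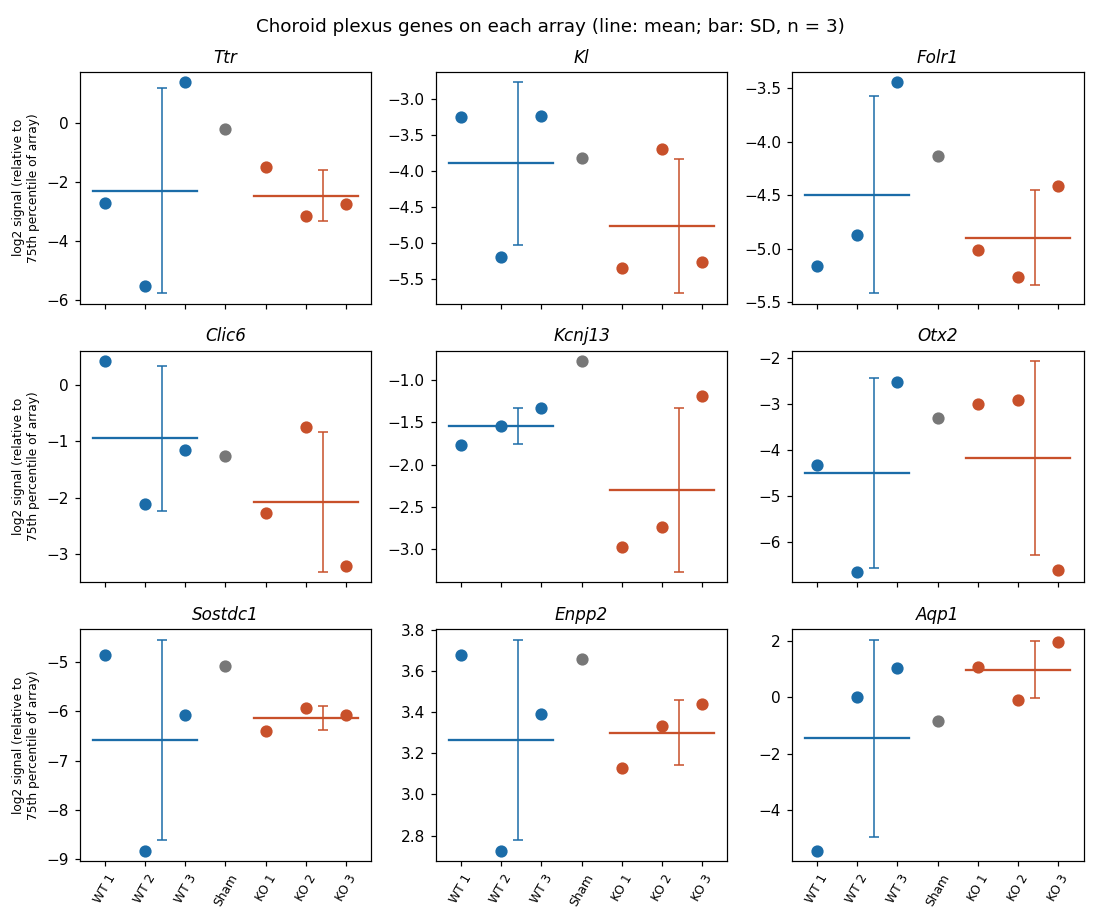
Log2 signal of the 9 choroid plexus genes relative to the 75th percentile of the array (vertical axes, scaled per gene) on each array (horizontal axes; WT, wild type day 3 in blue; sham in grey; KO, knockout day 3 in red), with group means as lines and SD (n = 3) as bars. Ttr spanned -5.51 to 1.37 within wild type, and the genotypes overlapped for all 9 genes.

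The clearest shared feature was a difference between wild type replicates 2 and 3, the pair of day 3 wild type arrays that resembled each other in injury genes. All 9 members were higher on replicate 3 than on replicate 2, where 49.5% of all features were. The differences were 6.89 for Ttr, 4.13 for Otx2, 2.76 for Sostdc1, 1.95 for Kl, 1.43 for Folr1, 1.03 for Aqp1, 0.97 for Clic6, 0.66 for Enpp2 and 0.21 for Kcnj13. The size of the Sostdc1 difference is uncertain, since its probe was not well above background on replicate 2. On that array even a level of -7.79, that of the second Folr1 probe, was not well above background. Of the 9 differences, 6 were at least 1 unit, as for 5.12% of all features. Replicate 2 was the lowest of the 7 arrays for Ttr, Otx2, Sostdc1 and Enpp2 (4 of 9, against 6.56% of all features). Replicate 3 was the highest for Ttr, Otx2, Kl and Folr1 (4 of 9, against 6.58%). Replicate 3 was above the mean of the gene over the 7 arrays for 9 of 9 members (48.4% of all features), sham for 8 of 9 (49.3%) and replicate 2 for 2 of 9 (49.9%). The remaining extremes were spread over the other arrays. Wild type replicate 1 was the highest for Clic6, Sostdc1 and Enpp2 (3 of 9, against 43.9% of all features) and the lowest for Aqp1 (1 of 9, against 34.3%). Knockout replicate 1 was the lowest for Kl and Kcnj13 (2 of 9, against 12.2%), replicate 2 for Folr1 (1 of 9, against 9.5%) and replicate 3 for Clic6 (1 of 9, against 17.4%). Knockout replicate 3 was the highest for Aqp1 (1 of 9, against 16%). The comparison of wild type replicates 2 and 3 was chosen after the values were seen and is between 2 arrays of 1 group, so no test applies.

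**Figure D2:**
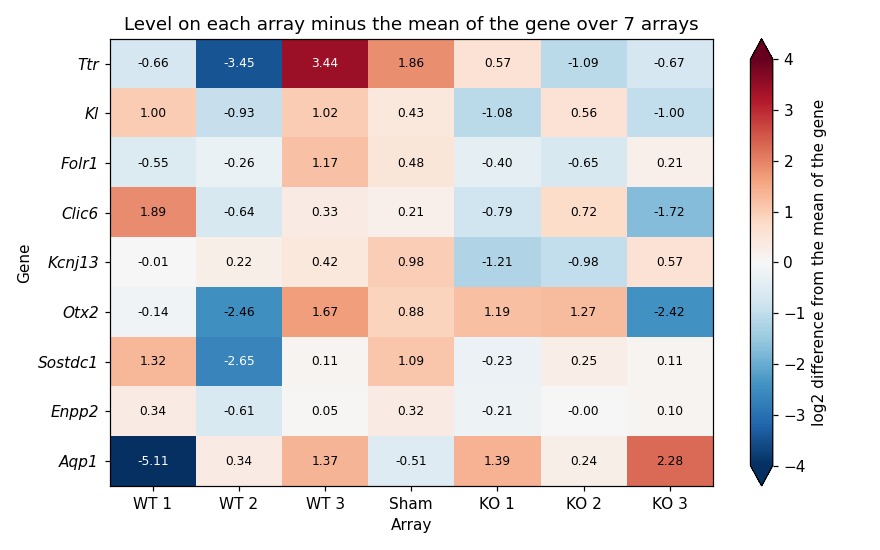
Level of each choroid plexus gene (rows) on each array (columns) minus the mean of that gene over the 7 arrays, in log2 units as printed in each cell; colours saturate at 4 units. Wild type replicate 3 was above the mean of the gene for 9 of 9 genes and wild type replicate 2 for 2 of 9.

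Gene lists for other cells and regions differed between these arrays as well. Hypothalamic neuropeptide genes were higher on replicate 3 for 12 of 13 members, with a median difference of 1.21. Avp, the vasopressin gene, read -4.85 on replicate 2 and -1.67 on replicate 3, and Crh, the gene of corticotropin-releasing hormone, read -3.82 and -2.61. Pmch read -3.64 and -2.75 on these arrays, and was highest on sham, at -0.46. Leptomeningeal genes were higher on replicate 3 for 12 of 14 members, with a median of 0.48, and ciliated ependymal genes, which mark the lining of the ventricles, for 11 of 15, with a median of 0.14. Striatal neuron genes were lower on replicate 3 for 10 of 13 members, with a median of -0.70, and cerebral cortex genes had a median of -0.47. Thalamic, neuronal, oligodendrocyte and injury genes had medians of 0.02, 0.09, 0.09 and -0.02. Hippocampal, red blood cell, endothelial and vascular smooth muscle genes had medians of 0.27, 0.05, -0.02 and -0.09. The summed hypothalamic signal was 1.63 on replicate 2, 4.41 on replicate 3 and 6.46 on replicate 1 in wild type, 4.36 on sham, and 1.45 to 2.73 in knockout. The part of dissection, and of the cells these lists mark, in the values of the members was not tested.

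**Figure D3:**
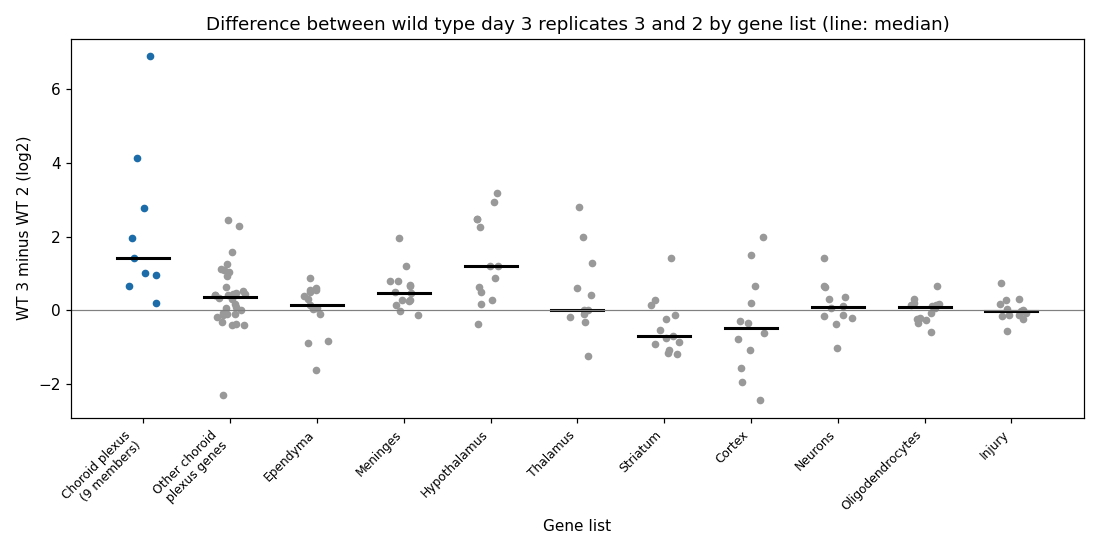
Log2 difference between wild type day 3 replicates 3 and 2 (vertical axis) for the tested genes of each list (horizontal axis; dots are genes, lines are medians, the 9 choroid plexus genes in blue). The medians were 1.43 for the 9 members, 1.21 for hypothalamic genes and -0.70 for striatal genes.

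In the wider set of choroid plexus genes the step between these arrays had a smaller median. Of the 32 tested, 22 were higher on replicate 3 than on replicate 2, with a median difference of 0.37. The 6 with the widest ranges over the 7 arrays were Car12, Steap1, Lbp, Htr2c, Trpv4 and Stra6, and in each of them wild type replicate 1 was at 1 end. Car12, a carbonic anhydrase gene, read 2.02 on that array against -4.78 to -0.86 on the others, and Htr2c, a serotonin receptor gene, 2.22 against -2.90 to 0.11. Steap1, a metalloreductase gene, read -6.22 against -1.56 to 0.24, and Stra6, the gene of the receptor for retinol-binding protein, -2.22 against -0.32 to 1.98. Lbp, which encodes a binding protein for lipopolysaccharide, and Trpv4, a calcium channel gene, were also lowest on that array, at -3.77 and -2.35. Krt18 and Kcne2, an epithelial keratin gene and a potassium channel subunit gene chosen after their values were seen, did share the step, reading -5.56 and -7.28 on replicate 2 and -3.12 and -5.00 on replicate 3. Kcne2 was well above background on 6 arrays only and read -7.20 on wild type replicate 1, so its step may rest in part on a background reading. Igfbp2 of the same list, also chosen after its values were seen, went the other way, from 3.34 to 1.06.

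The comparison of knockout with wild type asks whether brain lacking Pla2g2e differs on day 3 after occlusion. None of the 9 members passed, and the arrays of the genotypes overlapped for every one. Aqp1 was 2.43 ± 1.76 higher in knockout (log2 difference and SE, n = 3 each), at 0.98 ± 1.02 against -1.46 ± 3.48 (mean and SD). Otx2, Sostdc1 and Enpp2 differed by 0.33 ± 1.44, 0.45 ± 1.01 and 0.04 ± 0.29. On the lower side, Clic6 differed by -1.12 ± 0.87, Kl by -0.87 ± 0.72, Kcnj13 by -0.75 ± 0.51, Folr1 by -0.40 ± 0.52 and Ttr by -0.17 ± 1.74. The adjusted p was 0.862 to 0.972 over the members (limma, moderated test in a model of the 3 groups with Benjamini-Hochberg adjustment over 23323 features). By this test 0% of all features were called, and an unadjusted p under 0.05 was found for 0 of 9 members and 0.853% of all features. Groups that did not overlap made up 4.54% of all features and 0 of the 9. The median difference was -0.17 for the members and -0.03 over all features, with 5 of 9 lower in knockout against 53.2% of all features. Aqp1 and Clic6 differed by at least 2-fold (2 of 9, against 9.37% of all features).

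Several other lists leaned 1 way between the genotypes with all arrays in, and no gene of any list passed. Without wild type replicate 1 the lean shrank or turned, except for oligodendrocyte genes, where the median grew. All 13 striatal, 12 cortical and 12 neuronal genes were at lower means in knockout, with median differences of -1.79, -1.74 and -1.23, and hypothalamic genes had a median of -0.68. All 14 injury genes and 12 endothelial genes were at higher means, with medians of 2.22 and 0.88, and 13 of 14 oligodendrocyte genes, with a median of 0.21. Medians were -0.12 for ependymal, 0.38 for meningeal, -0.25 for hippocampal and thalamic, 1.51 for red blood cell and 0.41 for smooth muscle genes. Wild type replicate 1 was the lowest array for all 14 injury genes and 11 of 12 endothelial genes, and the highest for all 13 striatal, 12 cortical and 12 neuronal genes. Without it the median differences were -0.07 for injury, -0.12 for endothelial, -0.14 for striatal, -0.46 for cortical and -0.40 for neuronal genes. They were then -0.35 for hypothalamic, 0.30 for oligodendrocyte, -0.04 for ependymal, -0.25 for meningeal, -0.06 for hippocampal, -0.17 for thalamic, 0.44 for red blood cell and -0.34 for smooth muscle genes. The part of these cells in the differences of the members was not tested.

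Single arrays set the direction for several members. Without wild type replicate 1 the Aqp1 difference was 0.44, and without it Sostdc1 differed by 1.31. Without replicate 2, the Ttr difference became -1.78, Otx2 -0.75 and Sostdc1 -0.67. Without replicate 3, Ttr differed by 1.66, Folr1 by 0.12 and Otx2 by 1.32. Leaving out a knockout array also turned directions: Otx2 became -0.26 without replicate 1 and -0.30 without replicate 2, and Ttr 0.18 without replicate 2. Without knockout replicate 3, Otx2 differed by 1.54. Kl, Clic6 and Kcnj13 stayed lower in knockout whichever array was left out, at -1.51 to -0.54, -1.78 to -0.44 and -1.30 to -0.42, without passing. With neither wild type replicate 1 nor sham in the fit the differences were those without wild type replicate 1.

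**Figure D4:**
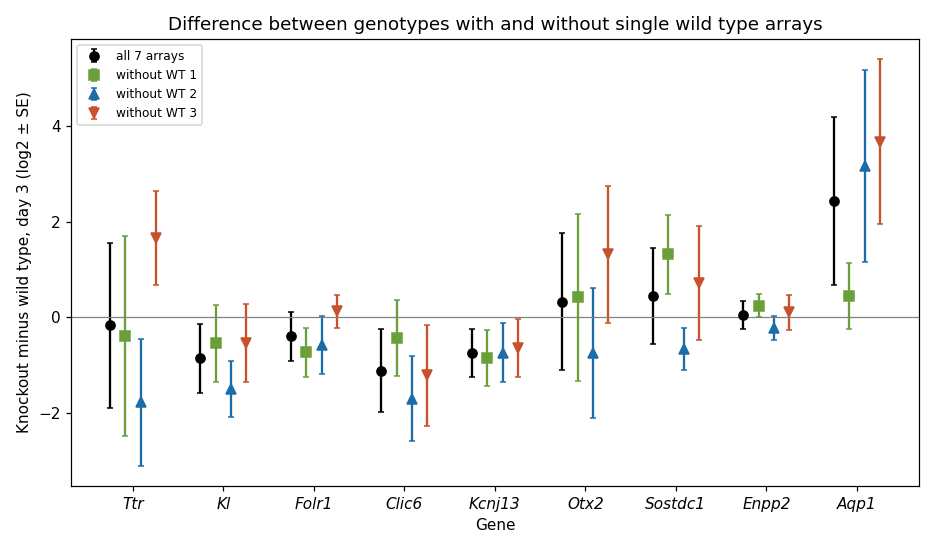
Log2 difference between knockout and wild type on day 3 with its SE (vertical axis) for the 9 genes (horizontal axis), with all 7 arrays (black) and without wild type replicate 1 (green), 2 (blue) or 3 (red). The Ttr difference went from -1.78 without replicate 2 to 1.66 without replicate 3.

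Against the single array labelled sham, which reads like a day 3 array in injury genes, most members were lower on day 3 without passing. In wild type the differences were -2.08 ± 2.46 for Ttr, -1.5 ± 1.42 for Sostdc1, -1.19 ± 2.04 for Otx2, -0.77 ± 0.72 for Kcnj13, -0.63 ± 2.49 for Aqp1, -0.39 ± 0.42 for Enpp2, -0.36 ± 0.73 for Folr1 and -0.07 ± 1.02 for Kl (log2 and SE, limma). Clic6 differed by 0.31 ± 1.24. Thus 8 of 9 were lower than sham, against 45.9% of all features, with medians of -0.63 and 0.03. In knockout, Ttr differed by -2.25, Kcnj13 by -1.52 ± 0.72, Sostdc1 by -1.05, Kl by -0.94, Otx2 by -0.86, Clic6 by -0.81, Folr1 by -0.76 and Enpp2 by -0.36. Aqp1 alone was higher, by 1.81 ± 2.49, a direction that turned to -0.14 with the replicate number as a block. Again 8 of 9 were lower, against 49.6% of all features, with medians of -0.86 and 0.00. These comparisons share the sham array, so their directions are not independent of each other. In each, limma called 0.0129% of all features and none of the 9 members, with an adjusted p of 1.0 for every member and unadjusted p of at least 0.0807. An unadjusted p under 0.05 was found for 1.12% of all features in wild type and 1.31% in knockout. Differences of at least 2-fold were found for Ttr, Sostdc1 and Otx2 in wild type (3 of 9, against 6.32% of all features) and for Ttr, Kcnj13, Sostdc1 and Aqp1 in knockout (4 of 9, against 9.3%). With 1 sham array only, its variation is taken to equal that of the day 3 groups.

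Without wild type replicate 1, Aqp1 was higher than sham in wild type, by 1.36, and Clic6 lower, by -0.37. Without wild type replicate 2, the Ttr difference from sham was -0.47, that of Otx2 -0.12, that of Sostdc1 -0.38 and that of Kl 0.58. Without knockout replicate 3, Otx2 was 0.35 above sham in knockout.

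Genes that work with the members, and those of fluid secretion, showed none past the test in any of the 3 comparisons. Of 22 tested binding partners, receptors and transporters, 12 had higher means in knockout, with a median difference of 0.09 (10, and -0.02, without wild type replicate 1). Those with the widest ranges were Rbp4, Folr2, Bmp7, Fgf23, Lpar6 and Bmp4. Rbp4, whose protein travels bound to transthyretin, read 1.69, -2.91 and -1.91 in wild type, -0.65 on sham, and -2.80, -1.0 and -1.85 in knockout. It was highest on wild type replicate 1, unlike Ttr, and lowest on replicate 2, like Ttr. Fgf23, the gene of the hormone that Klotho helps to bind, was 3.65 on wild type replicate 1 against 0.78 to 1.87 on the other arrays. Folr2, the folate receptor gene of macrophages, was -4.04 on that array against -0.15 to 0.48. Bmp4 and Bmp7, ligands of the pathway that SOSTDC1 antagonises, were lowest there too, at -0.87 and 0.24, as was the lysophosphatidic acid receptor gene Lpar6 at 0.24.

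Of 17 ion and water transport genes of fluid secretion, 7 were higher in knockout, with a median of -0.10 (8, and -0.03, without wild type replicate 1). Kcnq1, a potassium channel gene, read -4.01 on wild type replicate 1 against -1.17 to 0.14 on the others. Atp1b1, a sodium pump subunit gene, read 5.55 against 2.45 to 4.2, and Slc4a10, a sodium bicarbonate transporter gene, 0.25 against -2.71 to -1.25. Kcna3 was also highest on that array and Slc12a4 lowest, and Fxyd1 ranged from 2.13 on knockout replicate 1 to 4.18 on sham. Among the 32 other choroid plexus genes, 14 were higher in knockout, with a median of -0.03, and without wild type replicate 1 it was 8, with a median of -0.12. The genotypes did not overlap for 1 of the 32, against 4.54% of all features. This was Slc4a5, a bicarbonate transporter gene of this epithelium named after its values were seen and well above background on 6 arrays. Slc4a5 read -6.73, -6.65 and -6.02 in wild type and -7.34, -6.89 and -6.91 in knockout, a difference of -0.58 ± 0.28 that did not pass (limma, adjusted p = 0.862). The array missed was knockout replicate 1, where -7.34 lay below the lowest signal well above background, -7.16. The difference thus rests in part on a background reading.

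The members did not share 1 profile. The mean absolute gap between centred profiles over the 7 arrays was 0.47 for the closest pair, Kl and Clic6, and 2.54 for the farthest, Ttr and Aqp1. Profiles were not scaled, so the gap depends on the range of a gene as well as on its pattern. Ttr and Aqp1 also had the widest ranges of the members. The median profile of the 9 was -0.01, -0.64 and 1.02 on wild type replicates 1, 2 and 3, 0.48 on sham, and -0.23, 0.24 and 0.10 in knockout. The 10 genes nearest to this median profile, with gaps of 0.19 to 0.24, were Smoc1, Cpb1, Slc18a1, Moxd1, Ret, Enkur, Podn, Sync, Sprr1a and Lcn10. Their ranges over the 7 arrays were 0.66 to 1.58. Ttr, at 1.43, and Aqp1, at 1.66, were the members farthest from the median profile.

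The same measure was applied to single members after their values were seen. Nearest to Kcnj13 were Wfikkn2, a gene of the wider choroid plexus list, at a gap of 0.22, and Slc22a6, an organic anion transporter gene on the meningeal list, at 0.24. Wfikkn2 read -3.55 and -4.07 on knockout replicates 1 and 2 against -2.89 to -2.27 on the other 5 arrays, the same separation as Kcnj13. Nearest to Clic6 was Slc7a14, at 0.15. Nearest to Kl was Th, the tyrosine hydroxylase gene of dopamine neurons, at 0.22. Aqp1 lay nearest to Slc10a6, at 0.25, and to Igfbp3, which encodes a binding protein for insulin-like growth factors, at 0.30. No gene lay close to Ttr, the nearest being Smim22 at 0.85 and Thbs4 at 0.93. Otx2 was nearest to the prokineticin receptor gene Prokr2, at 0.52, which read -6.62 on wild type replicate 2 and -7.06 on knockout replicate 3 against -4.31 to -3.26 elsewhere.

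Since OTX2 is a homeodomain protein of the kind that binds TAATCC, the 250 bases before the annotated start were searched for TAATCC on both strands. Of the members, Aqp1, Kcnj13, Kl and Otx2 were in the RefSeq promoter table (GRCm38.p6), with 7 starts. The motif, as GGATTA, was in 1 of the 7, an Otx2 start, and in 6.25% of 32851 promoters of the table. That window is shown with the motif in capitals.
Otx2, chr14:48665110-48665359, - strand, GRCm38.p6: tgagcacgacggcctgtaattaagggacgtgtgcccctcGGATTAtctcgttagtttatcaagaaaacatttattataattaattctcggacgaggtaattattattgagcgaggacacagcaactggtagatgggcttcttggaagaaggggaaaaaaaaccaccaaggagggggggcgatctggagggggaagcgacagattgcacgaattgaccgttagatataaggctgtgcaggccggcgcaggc
The motif begins 211 bases before the start. It is a match of letters only, and the arrays do not measure binding.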

How the data were processed

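The authors deposited the intensity of every spot as read by Feature Extraction 11.5.1.1. Background was subtracted, and spatial and multiplicative trends removed within each array, per the file headers. The deposited value table, used as an alternative, holds a ratio: the processed signal over the 75th percentile of the array, to within 0.0428%. The scale is thus known to be linear, with no centring of genes; its column medians were 0.0942 to 0.107. No spot was saturated, and outlier spots were left out.

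Log2 processed signals minus the 75th percentile of the array were computed here. Spots of a probe were averaged, probes well above background on at least 3 arrays were kept, and the brightest probe stood for a gene. RefSeq names (GRCm38.p6) matched 28315 of 39401 probes; others kept their file name. limma 3.58.1 in R 4.3.3 fitted 3 groups (lmFit, eBayes; two-sided; 4 residual and 1.68 prior degrees of freedom; adjusted p under 0.05). The code of the fit was run on simulated data with independent noise. Those data held no outlying array and no slide effect, so they do not bear on either. The number of arrays limits the precision.

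Members and the 16 lists (247 entries, 231 tested) were chosen with earlier results of these data known. The rule named all members and the 10 genes nearest to the median profile. It also allowed up to 3 genes of widest range per list to be named, or up to 6 for the 3 lists closest to the members. Alternatives covered background correction, normalization, probe filters and choice, single arrays, array weights and the replicate block. Plots used Python 3.11.15 and matplotlib 3.10.9.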

Additional observations from a re-analysis of the deposited data

How the results depend on the processing

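None of the 9 members was called in any comparison under any alternative: 18 alternatives for knockout against wild type and 15 for each comparison with sham (limma; at most 1, 2 and 2 members at an unadjusted p under 0.05 in a setting; lowest adjusted p 0.665, 0.142 and 0.143 for knockout against wild type, knockout against sham and wild type against sham). With single arrays left out, the median difference of the members between knockout and wild type ranged from -0.75 (without wild type replicate 2) to 0.12 (without wild type replicate 3), and it was 0.41 with array weights against -0.17 with all arrays weighted equally. Over all features, the count called for wild type and for knockout against sham, 3 each, was 0 and 0 with normexp or with probes well above background on all 7 arrays, 1 and 1 with quantile normalization, 1 and 0 with arrays centred on the median, and 0 to 6 and 0 to 8 with single arrays left out, highest without wild type replicate 1. Array weights, which did not fully converge, gave 2 calls for knockout against wild type and 147 and 80 against sham. With the replicate block the counts were 0, 0 and 0. Deviations of same-numbered arrays from their group means had correlations of -0.38, -0.56 and 0.35 across genes, so no pairing by number was seen. Groups of 3 arrays, with wild type replicate 1 far from its replicates in injury genes, cannot decide whether the numbers pair the samples. Several directions turned, for small differences and for larger ones such as Aqp1 against sham. For knockout against wild type, Sostdc1 became -0.035 with normexp, Enpp2 -0.0034 with quantile normalization and Ttr 1.85 with array weights; with single arrays left out Ttr ranged from -1.78 to 1.66, Otx2 from -0.75 to 1.54, Sostdc1 from -0.67 to 1.31, Folr1 from -0.74 to 0.12 and Enpp2 from -0.23 to 0.24. For wild type against sham, Kl became 0.081 with normexp, 0.0052 with quantile normalization and 0.031 with median centring, Clic6 -0.63 and Aqp1 1.02 with array weights; with single arrays left out Kl ranged from -0.40 to 0.58, Clic6 from -0.37 to 0.90 and Aqp1 from -1.88 to 1.36. For knockout against sham, Aqp1 became -0.14 with the replicate block and Otx2 ranged from -1.49 to 0.35 with single arrays left out. Sostdc1 was not tested where all 7 arrays had to be well above background, and leaving out sham leaves no comparison with it. The causes of these shifts were not tested. Signal near background limits Sostdc1, the second Folr1 probe, and Kcne2 and Slc4a5 of the wider choroid plexus list.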
